A study of Homo sapiens with 14 samples.

Results

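The genes described here encode the nuclear subunits of the oxidative phosphorylation (OXPHOS) machinery of the mitochondrion. They were matched by symbol alone, and 81 of the 62703 genes in the count table matched. Of these, 37 belong to complex I, 4 to complex II, 9 to complex III, 12 to complex IV and 18 to complex V, and CYCS, which encodes the mobile carrier cytochrome c, was kept apart. A low-count filter on the whole table kept 79 of the 81 genes among 7086 genes tested.

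RNA levels were measured in 14 libraries from prostate cancer cell lines treated for 3 days with SEL120-34A at 1.5 µM, an inhibitor of the kinases CDK8 and CDK19 of the Mediator complex, or with its solvent dimethylsulfoxide (DMSO). LNCaP (enzalutamide-sensitive) and 22Rv1 (enzalutamide-resistant) had 3 libraries per arm, and PC3 had 1 per arm. The design text asks whether CDK8/CDK19 inhibition acts like lowering of the Mediator subunit MED12 in sensitive and resistant cells. All are established lines given a single dose for a single time, and plates for LNCaP were coated with poly-D-lysine, so differences between the lines and an effect of the coating cannot be told apart.

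Oxidative phosphorylation passes electrons from NADH (complex I) and succinate (complex II) through complex III and cytochrome c to oxygen at complex IV. The protons moved on the way drive ATP synthase, which is complex V. Except for complex II, which is wholly nuclear-encoded, the complexes combine subunits encoded in the nucleus with a few made inside the mitochondrion from its own DNA. Nuclear respiratory factor 1 (NRF1), the ETS factor GABP and YY1 are known as activators of many of the nuclear genes.

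Promoter sequence was available from RefSeq (GRCh38.p14) for 67 of the 81 genes, as 250 bases before to 50 bases after each start. Both strands were searched for GCGCATGCG, a form of the NRF1 site, for CCGGAAG, the core read by GABP and other ETS factors, and for AAGATGGC, a YY1 site. The NRF1 site can match both strands at neighbouring positions, and a promoter was counted once. It was present in 14.9% of the OXPHOS promoters, against 1.92% of all 35116 promoters and 4.33% of those of 5611 tested genes. The ETS core was present in 29.9%, against 10.3% and 22.2%, and the YY1 site in 16.4%, against 2.89% and 6.72%. At least 1 of the 3 was found in 34 of the 67 promoters (50.7%), with 14 of 32 in complex I, 4 of 7 in complex III, 5 of 10 in complex IV and 9 of 14 in complex V. The 120 bases before the start are printed below for 4 genes, with capitals for a motif match on either strand. COX5A (chr15:74938074-74938193, minus strand) and UQCRH (chr1:46303578-46303697, plus strand) are shown since they rose with the inhibitor in 22Rv1 and differ in motif content. ATP5MC1 (chr17:48892667-48892786, plus strand) and ATP5MC2 (chr12:53676084-53676203, minus strand) are shown since they encode the same mature protein from different promoters. No motif was found in the whole window of COX5A or ATP5MC1. UQCRH held the ETS core at positions -46 to -40, and ATP5MC2 held the NRF1 site at -41 to -33. These letters describe the windows and say nothing of factor binding in these cells.
COX5A: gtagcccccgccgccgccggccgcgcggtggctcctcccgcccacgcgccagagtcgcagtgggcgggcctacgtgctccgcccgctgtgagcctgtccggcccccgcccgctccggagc
UQCRH: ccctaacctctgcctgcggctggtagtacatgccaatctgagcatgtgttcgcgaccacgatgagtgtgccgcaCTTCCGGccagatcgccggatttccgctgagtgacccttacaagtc
ATP5MC1: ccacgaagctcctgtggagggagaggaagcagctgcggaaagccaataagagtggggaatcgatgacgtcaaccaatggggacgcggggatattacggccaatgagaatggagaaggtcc
ATP5MC2: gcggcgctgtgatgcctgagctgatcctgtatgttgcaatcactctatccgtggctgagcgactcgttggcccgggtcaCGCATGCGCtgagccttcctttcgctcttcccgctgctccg

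Total counts ranged from 246063 to 909176 per library, so that a gene without counts could have been present at up to 12.9 CPM (counts per 1000000 counts of the library, scaled with TMM factors) in the shallowest library and 3.27 CPM in the deepest, with 3 counts as the limit. All treated 22Rv1 libraries were shallower than their controls. The OXPHOS genes together took 2.41% to 2.54% of the counts in LNCaP DMSO and 2.11% to 2.36% in LNCaP SEL120-34A libraries, 2.47% to 2.70% and 2.54% to 2.59% in 22Rv1, and 1.66% and 1.73% in PC3. Vimentin (VIM), a PC3 marker, was at 1262 and 1109.9 CPM in PC3 and at 8.27 to 51.5 CPM elsewhere. Of 5 fibroblast markers, none passed the filter in LNCaP and 22Rv1. COL1A1 was nevertheless at 92.5 and 85.9 CPM in PC3, and COL3A1 at 15.6, 16.3 and 25.3 CPM in treated LNCaP libraries. COL1A2, DCN and LUM were at 1.19 CPM or less in every library.

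The 2 genes that did not pass the filter were NDUFA7, with 1 count in the whole LNCaP and 22Rv1 set, and NDUFV2, with 0 to 4 counts per library. NDUFV2 encodes an iron-sulfur subunit of the NADH-binding module of complex I. The row of its processed copy NDUFV2P1 held 34 to 131 counts per library and 1135 in all, against 11 for NDUFV2, so reads of the gene may have been counted under the copy. Copies with many counts were also present for NDUFA4 (NDUFA4P1, 805 counts against 2036), UQCRH (UQCRHL, 655 against 4052), NDUFB4 (NDUFB4P12, 542 against 2620), COX6A1 (COX6A1P2, 459 against 2660), COX7C (COX7CP1, 375 against 3710) and ATP5PD (ATP5PDP4, 275 against 854), and the levels of these genes are uncertain to that extent. At least 50 counts were found in 10 of 219 such copy rows. Of the 81 genes, 35 overlap a gene on the opposite strand and 31 a gene on the same strand.

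To determine how the OXPHOS genes responded in 22Rv1 cells, the SEL120-34A arm was set against the DMSO arm in a quasi-likelihood model (edgeR), and genes with an adjusted p-value under 0.05 are called changed. After SEL120-34A, 6 of the 79 tested genes were higher and 0 lower, against 4.15% of all tested genes higher and 1.55% lower. The 6 were COX5A, COX4I1 and COX7B of complex IV, ATP5MC1 and ATP5MF of complex V, and UQCRH of complex III. At an unadjusted p under 0.05 there were 19 higher and 2 lower genes, against 11.1% and 7.99% of all tested genes. The median log2 fold change of the 79 genes was 0.18, with 58 of 79 above 0, and that of all tested genes was 0.00.

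Complex IV, cytochrome c oxidase, had the highest median of the complexes in 22Rv1, at 0.37 on the log2 scale, with 11 of 12 genes above 0 and 3 called. Its summed level was 103%, 94.7% and 102% of the control mean in the DMSO libraries and 131%, 145% and 126% in the SEL120-34A libraries. COX5A (ENSG00000178741.12, chromosome 15, 74919791 to 74938083), an early-joining subunit of the enzyme, was at 1023, 951 and 1004 CPM in DMSO and at 1400.1, 1717 and 1392 CPM in SEL120-34A libraries. The groups did not overlap, and the log2 fold change was 0.61 ± 0.12 (SE, n = 3 per arm, edgeR adjusted p = 7.66e-04). COX4I1 (ENSG00000131143.10, chromosome 16, 85798633 to 85807068), the partner of COX5A at the start of assembly, was at 659.6, 582 and 695 CPM in DMSO and 912, 1004 and 799 CPM in treated libraries (0.49 ± 0.12, edgeR adjusted p = 0.0115). COX7B (ENSG00000131174.7, chromosome X, 77899440 to 77907376), a small membrane subunit, was at 181, 183 and 206 CPM in DMSO and 256, 318 and 245 CPM in treated libraries (0.51 ± 0.16, edgeR adjusted p = 0.0480). Every treated library lay above every control library for COX4I1 and COX7B too.

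The other complex IV genes did not pass the test, and all but COX8A had values above 0. COX6C was at 82.5, 67.4 and 100.2 CPM in DMSO and 154, 116 and 114 CPM in treated 22Rv1 libraries (0.62 ± 0.21, edgeR adjusted p = 0.0746). NDUFA4, a subunit of complex IV despite its symbol, was at 342, 324 and 308 CPM in DMSO and 422, 446 and 422 CPM in treated libraries (0.42 ± 0.14, edgeR adjusted p = 0.0656). Values were 0.39 for COX6A1, 0.35 for COX7C, 0.34 for COX7A2, 0.32 for COX5B, 0.30 for COX6B1, 0.06 for COX7A2L, which helps to join complexes III and IV, and -0.05 for COX8A. For 9 of the 12 complex IV genes every treated library lay above every control library. Among all 79 genes there were 20 genes of this kind and 3 with every treated library below every control, against 12.4% and 10.5% of all tested genes.

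**Figure D1:**
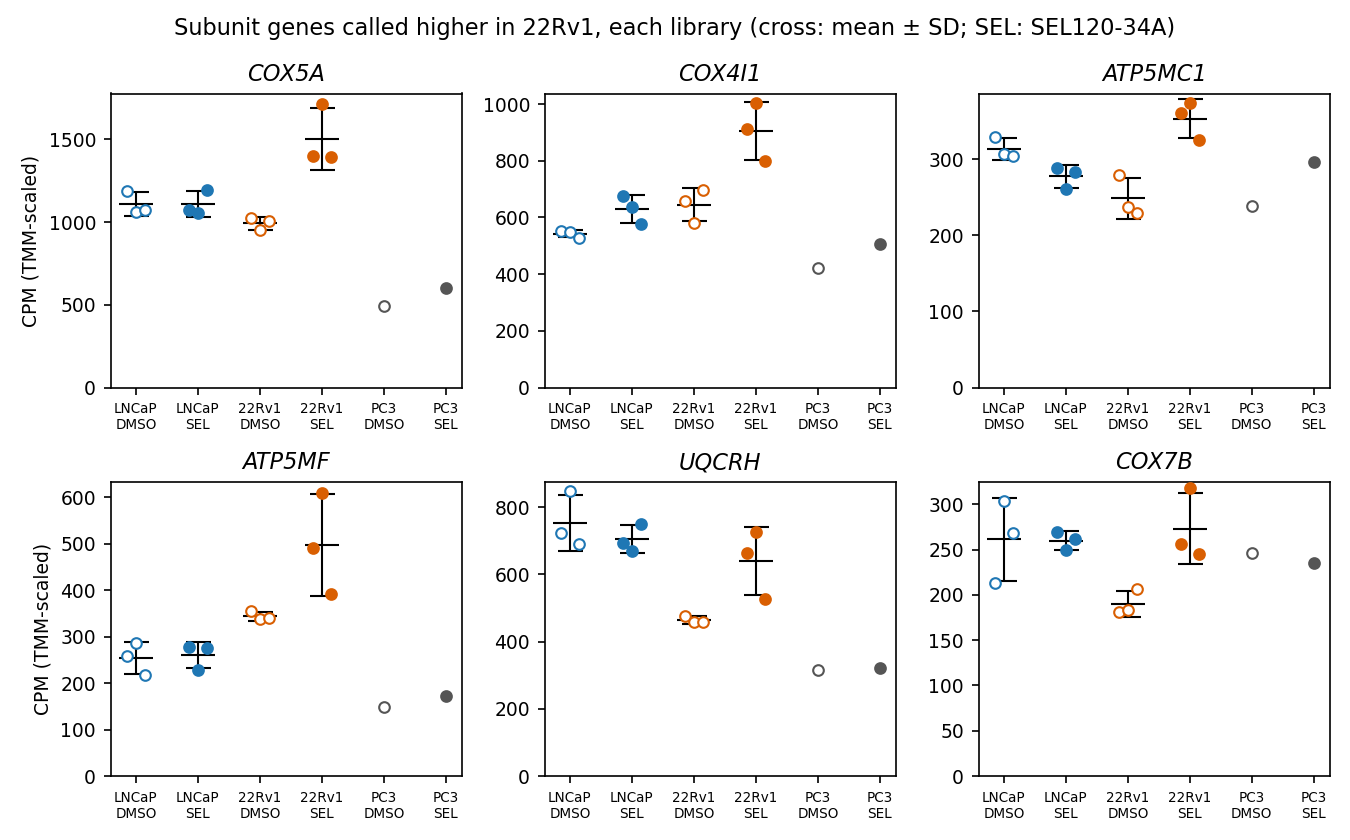
CPM (vertical axis, from 0) of the 6 genes called higher in 22Rv1, in each library of the 6 groups on the horizontal axis. Open points are DMSO and filled points SEL120-34A libraries, and crosses give the mean ± SD of 3 libraries. In 22Rv1 the 3 filled points lie above the 3 open points in every panel, while in LNCaP the groups overlap for COX5A, ATP5MF, UQCRH and COX7B.

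Complex V, ATP synthase, had a median log2 fold change of 0.17 in 22Rv1, with 14 of 18 genes above 0. ATP5MC1 (ENSG00000159199.14, chromosome 17, 48892765 to 48895871) is 1 of 3 genes for subunit c, whose ring turns as protons pass. It was at 279, 238 and 229 CPM in DMSO and at 361, 373 and 325 CPM in treated 22Rv1 libraries (0.52 ± 0.14, edgeR adjusted p = 0.0199). The other subunit c genes did not pass, with 0.09 ± 0.13 for ATP5MC2 and 0.14 ± 0.12 for ATP5MC3. ATP5MF (ENSG00000241468.8, chromosome 7, 99448475 to 99466186), a subunit of the membrane part, was at 355, 337 and 339.9 CPM in DMSO and at 491, 609 and 391 CPM in treated libraries (0.53 ± 0.15, edgeR adjusted p = 0.0234). ATP5MF overlaps 2 genes on its own strand and 1 on the other, so that reads of these neighbours may be among its counts. ATP5F1B, the catalytic β subunit, was at 3365, 2910.5 and 3806 CPM in DMSO and 2828, 1867 and 2932 CPM in treated libraries, and the groups overlapped (-0.39 ± 0.14, edgeR adjusted p = 0.0877). ATP5F1B held the most counts of the 79 genes, and the summed level of complex V was 104%, 89.1% and 107% of the control mean in the DMSO libraries and 102%, 96.4% and 99.5% in the treated libraries. Values for the α subunit ATP5F1A (-0.06 ± 0.13) and the inhibitor ATP5IF1 (0.19 ± 0.19) did not pass the test.

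Complex III, which hands electrons to cytochrome c, had a median of 0.18 in 22Rv1, with 8 of 9 genes above 0. UQCRH (ENSG00000173660.12, chromosome 1, 46303698 to 46316776), the hinge protein next to cytochrome c1, was at 477, 459 and 458 CPM in DMSO and 664, 725 and 528 CPM in treated libraries (0.47 ± 0.13, edgeR adjusted p = 0.0276). The core subunit UQCRC1 had a value of 0.00 ± 0.13, the Rieske iron-sulfur protein UQCRFS1 one of 0.24 ± 0.14 and cytochrome c1 (CYC1) one of -0.05 ± 0.13. CYCS was at 112, 146 and 93.0 CPM in DMSO and 157, 176 and 106 CPM in treated libraries (0.33 ± 0.20), and the groups overlapped.

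Complex I, NADH dehydrogenase, had 0 of 35 tested genes called in 22Rv1, against 4.15% of all tested genes called higher and 1.55% lower. Its median was 0.13, with 22 of 35 above 0. Every treated library lay above every control for 5 of the 35, namely NDUFAB1, NDUFB4, NDUFB7, NDUFS5 and NDUFV1, against 12.4% of all tested genes. NDUFB9 and NDUFC1 were among the 3 with every treated library below every control, against 10.5% of all tested genes. NDUFS1, an iron-sulfur subunit, had a value of -0.46 ± 0.27 with overlapping groups, and the NADH-binding subunit NDUFV1 one of 0.27 ± 0.14. NDUFAB1, the mitochondrial acyl carrier protein that also sits in complex I, was at 620.4, 526 and 574 CPM in DMSO and 749.6, 794 and 673 CPM in treated libraries (0.38 ± 0.12, edgeR adjusted p = 0.0620). Complex II, succinate dehydrogenase, had 2 of 4 genes above 0 and a median of 0.10, with -0.49 ± 0.32 for the flavoprotein SDHA and -0.03 ± 0.14 for the iron-sulfur subunit SDHB.

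The 22Rv1 values moved with transcript length, whose part in the result was not tested. OXPHOS transcripts are short, with a median canonical length of 763 nucleotides (GENCODE 44) against 2760 for all tested genes. Among genes under 1000 nucleotides the median log2 fold change in 22Rv1 was 0.32 for the 45 OXPHOS genes and 0.28 for all 777 tested genes, of which 8.89% and 12.5% were called higher. From 1000 to under 2000 nucleotides it was 0.12 for 16 OXPHOS genes and 0.11 for all 1555, and from 2000 nucleotides 0.11 for 18 OXPHOS genes and -0.09 for all 4754. Spearman's rho of length and log2 fold change in 22Rv1 was -0.404 across the 79 genes and -0.333 across all 7086, which share the same libraries. In LNCaP it was -0.072 and 0.035.

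**Figure D2:**
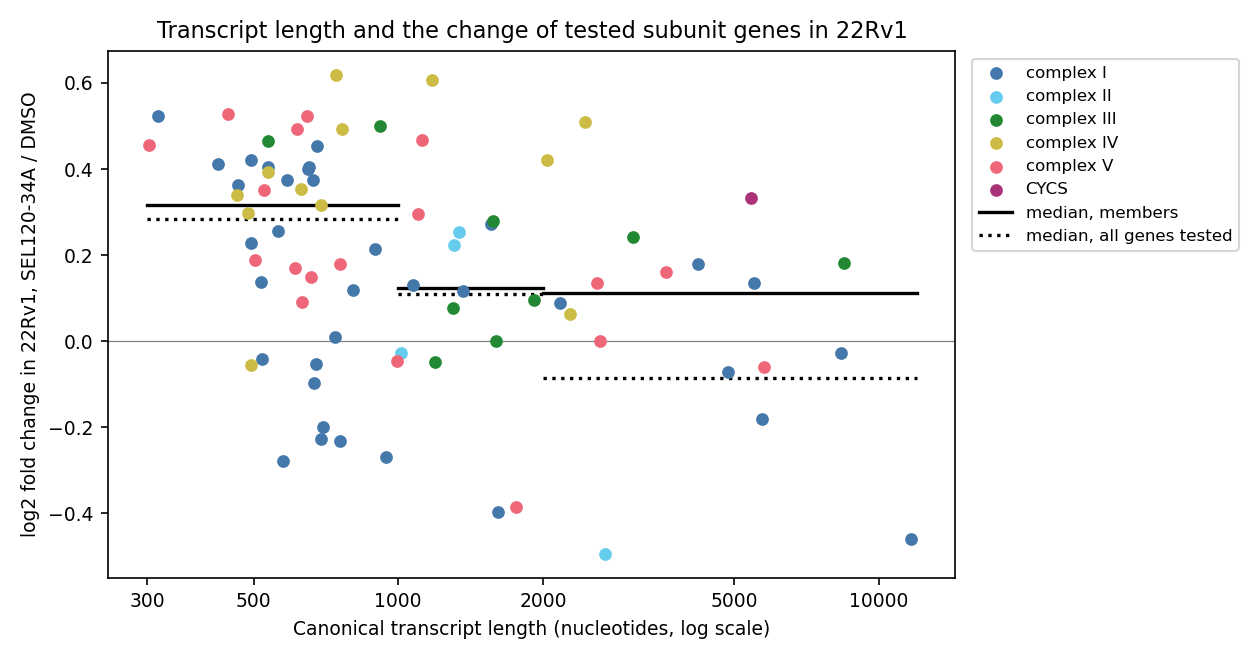
Canonical transcript length (horizontal axis, nucleotides, log scale) and log2 fold change in 22Rv1 (vertical axis) of the 79 tested OXPHOS genes, coloured by complex. Solid lines give the median of the OXPHOS genes and dotted lines that of all tested genes in 3 length classes. The lines lie close together under 1000 nucleotides (0.32 and 0.28) and apart from 2000 nucleotides (0.11 and -0.09).

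Scaling also bears on the 22Rv1 result. With library totals in place of TMM factors the median of all genes moved to -0.08 in LNCaP and -0.14 in 22Rv1 and that of the OXPHOS genes in 22Rv1 to 0.03, and 3 OXPHOS genes were called, with COX5A higher and 2 lower, ATP5F1B among them. After thinning every library to 246063 counts, 3 of the 6 were called (COX5A, COX4I1 and ATP5MF). Of the 6, 3 kept their call without 22Rv1 DMSO replicate 1 (COX5A, COX4I1 and ATP5MC1), 2 without DMSO replicate 3 (COX5A and COX4I1), and COX5A alone without DMSO replicate 2 or without SEL120-34A replicate 1 or 2. ATP5F1B, not called in the main fit, was called lower in 8 of 23 alternatives, among them the fit without DMSO replicate 2. COX5A passed in all 23 alternatives, with adjusted p from 2.66e-05 to 0.0129, whereas COX4I1 lost its call in 5, ATP5MC1 in 7, ATP5MF in 8, UQCRH in 10 and COX7B in 20.

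**Figure D3:**
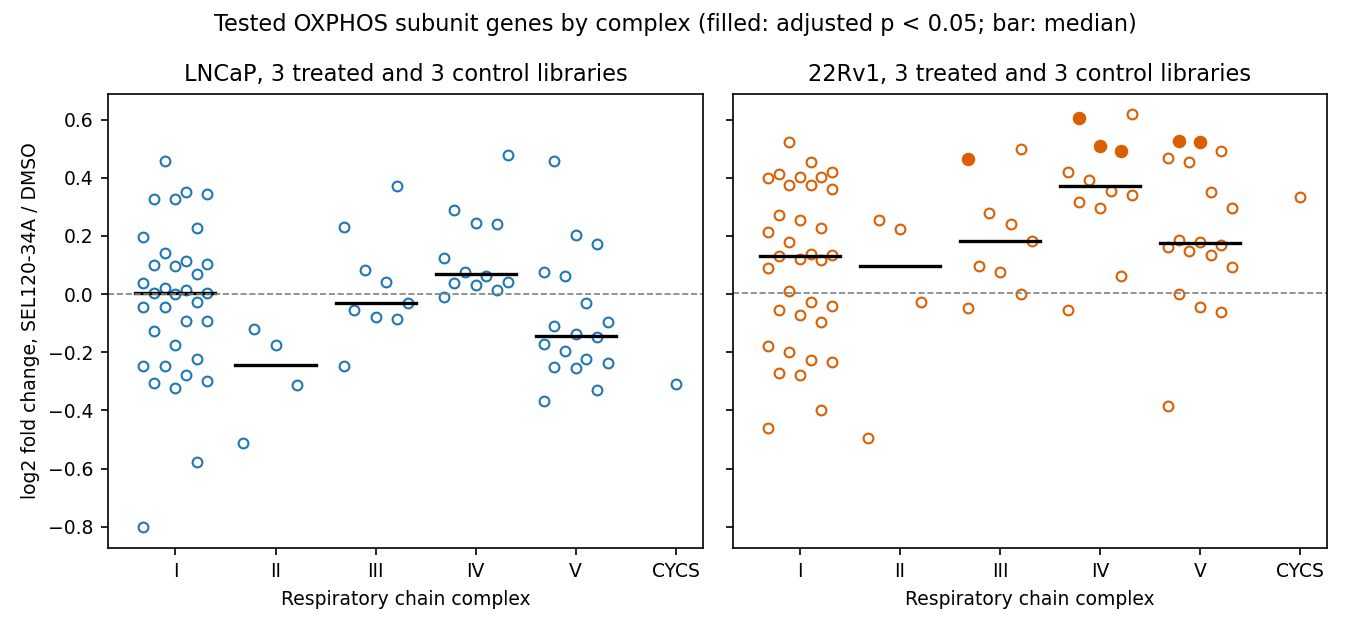
Log2 fold change (vertical axis) of each tested OXPHOS gene after SEL120-34A in LNCaP (left) and 22Rv1 (right), by complex on the horizontal axis. Filled points passed the test, bars are medians and the dashed line is the median of all tested genes. Complex IV has the highest median in 22Rv1 (0.37), with 3 filled points, and no point is filled in LNCaP.

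In LNCaP cells none of the 79 tested OXPHOS genes passed the test, against 1.99% of all tested genes higher and 0.776% lower. At an unadjusted p under 0.05, 4 were higher and 6 lower, against 7.86% and 5.63% of all tested genes. The median log2 fold change was -0.01, with 39 genes above and 40 below 0. In 5 genes every treated library lay above every control library and in 8 below, against 8.76% and 10.7% of all tested genes. Medians were 0.00 for complex I, -0.24 for complex II, -0.03 for complex III, 0.07 for complex IV and -0.14 for complex V.

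All 4 genes of complex II had values below 0 in LNCaP. SDHD, a membrane anchor of the complex, was at 149, 118 and 113 CPM in DMSO and at 93.6, 56.9 and 109.8 CPM in treated libraries without overlap (-0.51 ± 0.20, edgeR adjusted p = 0.217). The summed level of complex II was 106%, 96.1% and 98.1% of the control mean in DMSO and 79.4%, 82.8% and 90.6% in treated libraries. SDHB (-0.17 ± 0.16) and SDHA (-0.31 ± 0.33) did not pass either.

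In complex V 13 of 18 genes had values below 0 in LNCaP. The 3 subunit c genes all had non-overlapping, lower treated libraries, although none was called. ATP5MC1 was at 329.6, 306 and 303 CPM in DMSO and 289, 260.2 and 283 CPM in treated libraries (-0.15 ± 0.14, edgeR adjusted p = 0.718). ATP5MC2 was at 594, 696 and 661 CPM in DMSO and 460.1, 520.4 and 528 CPM in treated libraries (-0.33 ± 0.13, edgeR adjusted p = 0.220). ATP5MC3 was at 2585, 2691 and 2620.1 CPM in DMSO and 2183, 2017 and 2281 CPM in treated libraries (-0.25 ± 0.11, edgeR adjusted p = 0.295). ATP5F1D and ATP5PO were the other complex V genes with every treated library below every control, which made 5 of 18, against 10.7% of all tested genes. For 1 of 18, ATP5MK, every treated library lay above every control, against 8.76% of all tested genes. ATP5PD, a subunit of the stator stalk, had a value of -0.37 ± 0.20, which turned to 0.16 with all libraries thinned to the same total. ATP5MK, a small membrane subunit, was at 97.2, 139 and 105 CPM in DMSO and 156, 152 and 142 CPM in treated libraries (0.46 ± 0.19, edgeR adjusted p = 0.231).

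Complex IV had 11 of 12 genes above 0 in LNCaP. COX6A1, a small nuclear-encoded subunit, came closest to the threshold, at 265, 306 and 247 CPM in DMSO and 343, 323 and 431 CPM in treated libraries (0.48 ± 0.15, edgeR adjusted p = 0.0662). It passed without 22Rv1 DMSO replicate 2 (edgeR adjusted p = 0.0489) and with a filter of at least 10 counts in every library (edgeR adjusted p = 0.0341), and over 23 alternatives its adjusted p ranged from 0.0341 to 0.408. COX5A was at 1190.3, 1063 and 1077 CPM in DMSO and 1076, 1057 and 1198 CPM in treated LNCaP libraries (0.03 ± 0.12). In complex I the values farthest from 0 among genes with at least 20 counts on average were those of NDUFB7 (0.46 ± 0.19) and NDUFA3 (-0.58 ± 0.26), both accessory subunits of the membrane arm, with edgeR adjusted p of 0.245 and 0.294.

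**Figure D4:**
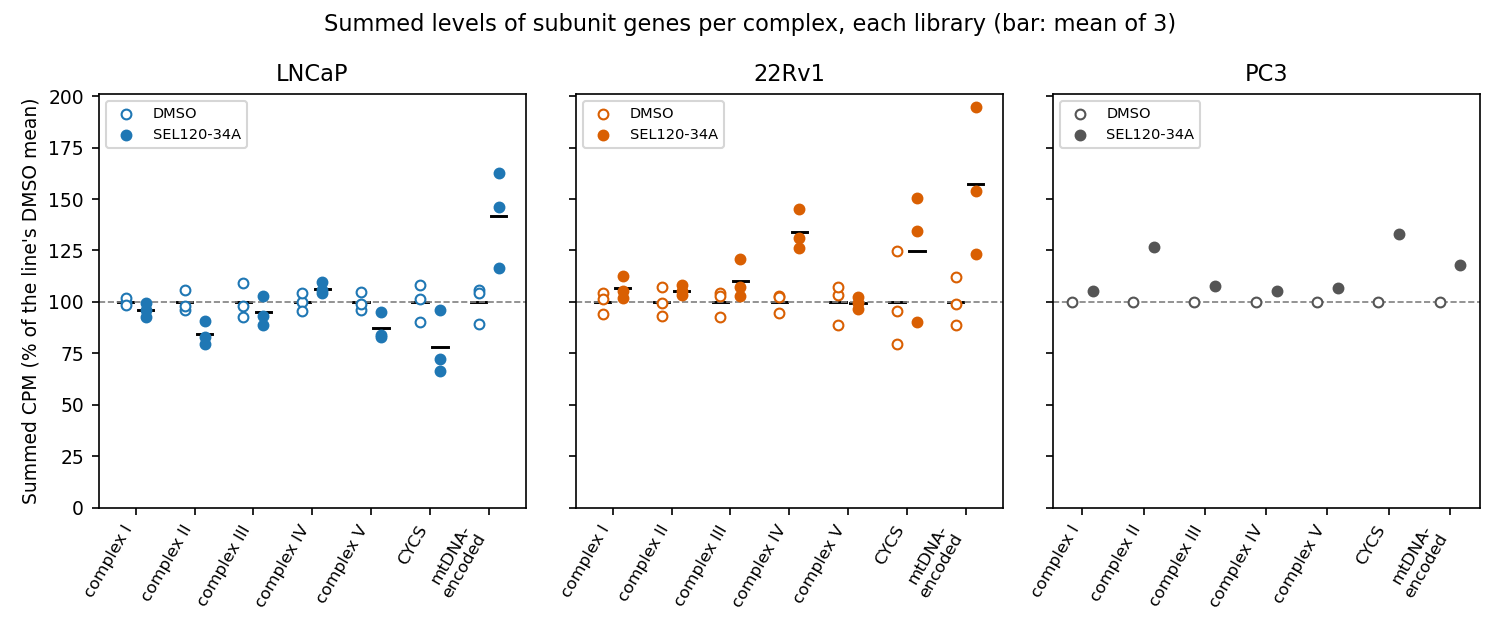
Summed CPM per complex (vertical axis, percent of the DMSO mean of the same line) in each library of LNCaP, 22Rv1 and PC3, for complexes I to V, CYCS and the subunits encoded by mitochondrial DNA. Open points are DMSO, filled points SEL120-34A, and bars are means of 3 libraries. Complex IV in 22Rv1 lies at 126% to 145% after treatment, and complex II in LNCaP at 79.4% to 90.6%.

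Whether the lines differed in their response was tested directly, as the inhibitor effect in LNCaP minus that in 22Rv1. No OXPHOS gene passed, against 0.268% of all tested genes with a more positive and 0.466% with a more negative effect in LNCaP. At an unadjusted p under 0.05 there were 0 more positive and 14 more negative genes (5.36% and 6.08% of all tested genes), 7 of them in complex V. The median difference was -0.20, against -0.02 for all tested genes, and 57 of 79 were below 0. Under 1000 nucleotides it was -0.25 for the 45 OXPHOS genes and -0.25 for all 777 genes. By complex the median difference was -0.06 in complex I, -0.24 in complex II, -0.13 in complex III, -0.30 in complex IV and -0.39 in complex V.

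The smallest adjusted p-values in that comparison were those of COX5A (-0.57 ± 0.17, edgeR adjusted p = 0.113) and ATP5MC1 (-0.67 ± 0.20, edgeR adjusted p = 0.119). COX5A passed with the DESeq2 Wald test (adjusted p = 0.0410). ATP5MC1 was the only OXPHOS gene whose treated libraries all lay below the controls in LNCaP and all above them in 22Rv1. Of all tested genes, 10.7% had every treated library below every control in LNCaP and 12.4% every one above in 22Rv1. How many genes had both was not counted. SDHD (-0.77 ± 0.28), CYCS (-0.64 ± 0.29) and UQCRH (-0.52 ± 0.18) had edgeR adjusted p from 0.226 to 0.393.

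As among all tested genes, more OXPHOS genes passed the test between the untreated lines than between the arms of either line. Between DMSO-treated LNCaP and 22Rv1, 31 of the 79 OXPHOS genes were called. Of these, 19 were higher and 12 lower in LNCaP, against 24.0% and 25.0% of all tested genes. The share called higher was close to that of all tested genes, and the share called lower was smaller. Under 1000 nucleotides, 24.4% of OXPHOS genes and 36.8% of all tested genes were called higher in LNCaP. These shares were 6.25% and 27.1% from 1000 to under 2000 nucleotides, and 38.9% and 20.9% from 2000 nucleotides. The median difference was 0.06, against -0.03 for all tested genes. It was 0.31 in complex III, 0.19 in complex V, 0.01 in complex I, -0.005 in complex IV and -0.12 in complex II. Complexes I, III, IV and V each held genes in both directions.

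ATP5MC3 was the OXPHOS gene with the largest difference. It was at 2585, 2691 and 2620.1 CPM in LNCaP and at 958, 837 and 1033 CPM in 22Rv1 (1.48 ± 0.12, edgeR adjusted p = 4.63e-14). The other subunit c genes were closer between the lines, with 0.35 ± 0.13 for ATP5MC1 and 0.06 ± 0.13 for ATP5MC2. UQCRFS1, the Rieske protein, was at 682, 759 and 646 CPM in LNCaP and at 332, 290.1 and 316 CPM in 22Rv1 (1.15 ± 0.13, edgeR adjusted p = 8.32e-10). NDUFC2 of the complex I membrane arm (1.02 ± 0.31, on 18 to 26 counts per LNCaP and 8 to 16 per 22Rv1 library), ATP5PB of the stator stalk (0.87 ± 0.12) and UQCRQ of complex III (0.81 ± 0.16) were also higher in LNCaP.

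Higher in 22Rv1 was, with the largest difference, NDUFA5, an accessory subunit of complex I. It was at 25.4, 36.7 and 32.2 CPM in LNCaP and 72.6, 67.4 and 79.9 CPM in 22Rv1 (-1.26 ± 0.24, edgeR adjusted p = 3.11e-05). SDHB was at 238, 225 and 222 CPM in LNCaP and 339.6, 389 and 437 CPM in 22Rv1 (-0.77 ± 0.14, edgeR adjusted p = 1.85e-05). NDUFB2 (-0.76 ± 0.19) and COX6A1 (-0.65 ± 0.14) were also higher in 22Rv1. The catalytic subunit ATP5F1B was also lower in LNCaP (-0.41 ± 0.14), as were the core subunits of complex III UQCRC1 (-0.49 ± 0.12) and CYC1 (-0.44 ± 0.13).

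**Figure D5:**
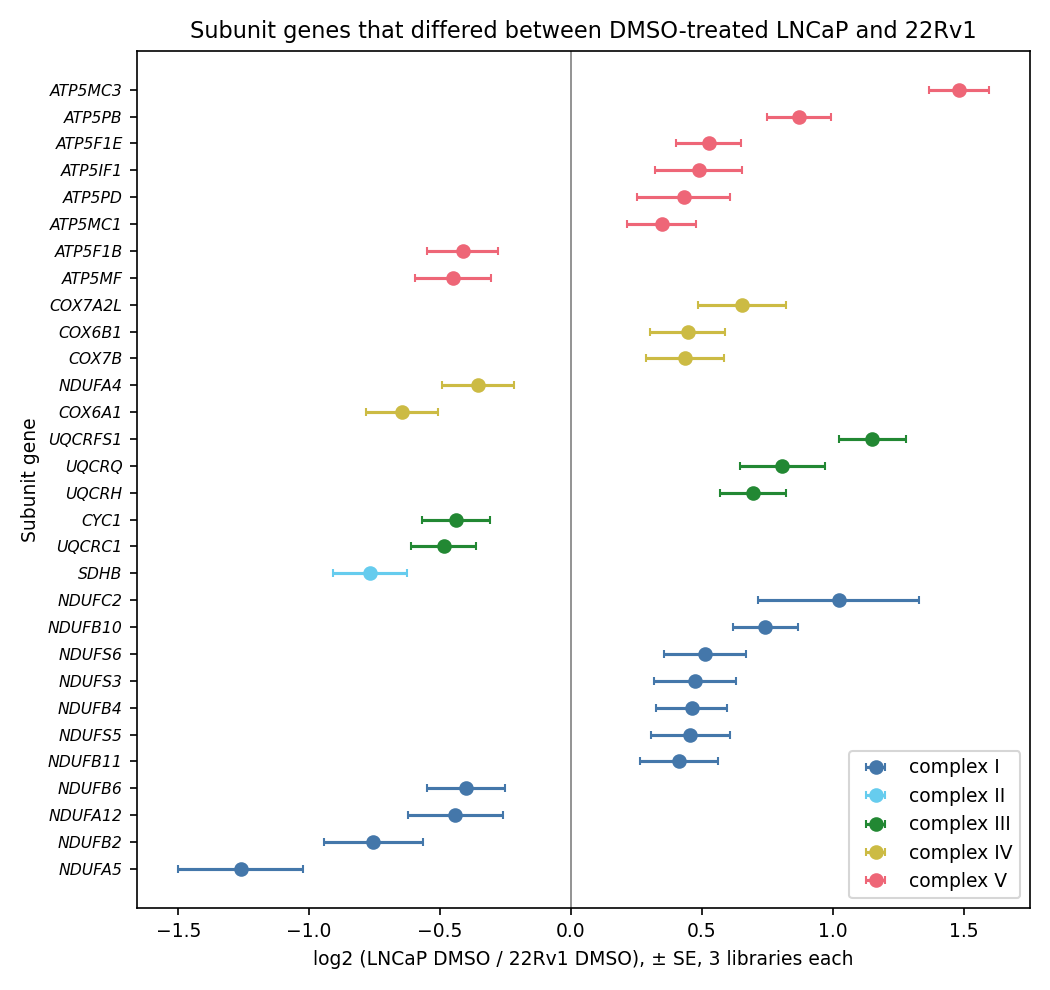
Log2 difference between DMSO-treated LNCaP and 22Rv1 (horizontal axis, ± SE, 3 libraries per line) of 30 of the 31 OXPHOS genes that passed the test (vertical axis), coloured by complex. Of these, 19 lie to the right (higher in LNCaP), led by ATP5MC3 at 1.48, and 11 to the left, led by NDUFA5 at -1.26.

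PC3 had 1 library per arm, so its values are ratios of 2 libraries with no replicate check. Of 74 OXPHOS genes with a mean of at least 20 counts, 2 were at least 1.5-fold higher and 1 lower in the treated library, against 6.49% and 7.54% of 5620 genes. They were ATP5PD (119 and 184 CPM), NDUFS5 (107 and 161 CPM) and NDUFV3 (32.7 and 21.0 CPM, on 30 and 12 counts). The median log2 ratio was 0.06, with 0.40 in complex II, where all 4 genes were above 0, 0.05 in complex I, 0.03 in complex III, -0.03 in complex IV and 0.08 in complex V. COX5A was at 492 and 605 CPM and COX4I1 at 421 and 507 CPM.

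The subunits encoded by mitochondrial DNA, the partners of these proteins in complexes I, III, IV and V, had higher values after the inhibitor in both tested lines. Of 11 tested, 6 rose in LNCaP (median 0.57), beside 1.99% of all tested genes called higher, and 9 in 22Rv1 (median 0.69), beside 4.15%, with all 11 above 0 in each line. MT-ND1 of complex I was at 10051, 9024 and 9149.5 CPM in LNCaP DMSO and 17818, 14494 and 12900.0 CPM in treated libraries (0.71 ± 0.13, edgeR adjusted p = 4.73e-04). In 22Rv1, MT-CO1, the catalytic subunit of complex IV, was at 7949, 9177 and 3926 CPM in DMSO and 12330.0, 17241 and 9529.5 CPM in treated libraries (0.91 ± 0.22, edgeR adjusted p = 0.00688). MT-CYB of complex III rose by 0.83 and MT-ND4 by 0.76 in 22Rv1, and MT-ND5 by 0.76 and MT-ATP6 of complex V by 0.62 in LNCaP, on the log2 scale. All 6 of these genes lost their call when limma-trend was fitted to the log2 table (adjusted p from 0.0635 to 0.304). MT-CO1 and MT-ATP6 each lost it in 4 of 22 alternatives. For MT-CO1 these included the fits without 22Rv1 DMSO replicate 3 (0.60, edgeR adjusted p = 0.0970) and without SEL120-34A replicate 2 (0.66, edgeR adjusted p = 0.111). For MT-ATP6 they included those without LNCaP DMSO replicate 3 (0.50) and without SEL120-34A replicate 1 (0.45) or 2 (0.54), with edgeR adjusted p from 0.113 to 0.201. Mitochondrially encoded RNA took 13.9% to 17.3% of the counts in LNCaP DMSO and 16.5% to 23.3% in treated libraries, and 7.60% to 9.82% and 9.52% to 13.1% in 22Rv1. Nuclear copies of mitochondrial genes share sequence with them, so these levels are uncertain to that extent. Removing the mitochondrial genes before scaling left 6 nuclear OXPHOS genes called in 22Rv1, 5 of them from the original 6, with ATP5F1B (lower) in place of COX7B. In bulk RNA, a change in the make-up of the cells and a change in RNA per cell cannot be told apart.

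Assembly factors, which build the complexes without remaining in them, were tested for 43 of the 57 genes listed, the rest not passing the filter or not matching. In LNCaP 1 of the 43 rose, beside 1.99% of all tested genes, namely COX14 of complex IV assembly, from 88.7, 157 and 76.9 CPM to 191, 159.9 and 149.9 CPM (0.72 ± 0.20, edgeR adjusted p = 0.0358). In 22Rv1 4 of the 43 rose, beside 4.15% of all tested genes. They were TTC19 of complex III assembly (1.09 ± 0.33, edgeR adjusted p = 0.0407), CMC2 of complex IV assembly (1.00 ± 0.23, edgeR adjusted p = 0.00578), NDUFAF6 of complex I assembly (0.82 ± 0.21, edgeR adjusted p = 0.0113) and TMEM70 of complex V assembly (0.79 ± 0.20, edgeR adjusted p = 0.00976). Medians of the 43 were 0.07 in LNCaP and 0.17 in 22Rv1. COX14 lost its call in 10 of 23 alternatives, among them those without LNCaP DMSO replicate 1 or 3 or SEL120-34A replicate 1 or 2. TTC19 lost it in 11 of 21, including without any 1 of the 6 libraries of 22Rv1. NDUFAF6 lost it in 4 of 23, including without 22Rv1 DMSO replicate 2 (0.70, edgeR adjusted p = 0.0627) or SEL120-34A replicate 2 (0.63, edgeR adjusted p = 0.147), and CMC2 in 1 of 23, after thinning. TMEM70 lost it in 3 of 23, including without 22Rv1 DMSO replicate 2 (0.61, edgeR adjusted p = 0.0783) or SEL120-34A replicate 1 (0.70, edgeR adjusted p = 0.0976).

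Genes of the citric acid cycle and pyruvate dehydrogenase, which supply NADH and succinate, had medians below 0, at -0.07 in LNCaP and -0.10 in 22Rv1 over 18 genes. DLAT, a subunit of pyruvate dehydrogenase, was the only one called, beside 1.55% of all tested genes called lower in 22Rv1. It was at 70.7, 109 and 82.3 CPM in DMSO and 44.1, 42.9 and 48.5 CPM in treated 22Rv1 libraries (-0.92 ± 0.25, edgeR adjusted p = 0.0199). It lost its call in 5 of 23 alternatives (adjusted p from 0.0543 to 0.0983), which were thinning, DESeq2 and the fits without 22Rv1 DMSO replicate 2 or SEL120-34A replicate 1 or 2. Of 16 regulators of mitochondrial biogenesis, 10 were tested. None passed in LNCaP or 22Rv1, where 2 (both lower) and 0 had an unadjusted p under 0.05, and their medians were -0.16 and 0.05. Of all tested genes, 7.86% were higher and 5.63% lower at that unadjusted threshold in LNCaP, and 11.1% and 7.99% in 22Rv1. None of 7 tissue-restricted or alternative subunit isoforms, such as COX4I2 and COX7A1, passed the filter.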

How the data were processed

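RNA from 14 libraries was counted per gene by barcoded 3' tag sequencing (BRB-seq). The authors aligned reads with STARsolo, according to their processing notes and methods, to GRCh38.p13 with GENCODE 43, and deposited whole-number counts for 62703 genes. They also deposited log2 CPM values for 9638 genes, which were recomputed from the counts with TMM factors and a prior count of 2 to within 4.97e-14. How reads with the same molecular identifier were treated, and whether counting used strand, is not given in the sources used here. A 3' tag count does not scale with transcript length. Tests compared each gene between libraries, and sums over genes describe the libraries without a test.

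OXPHOS genes were found by symbol, and NDUFA4 was placed in complex IV and ATP5IF1 in complex V. The members and gene lists were chosen with earlier results of these data known. Counts of the 12 LNCaP and 22Rv1 libraries were fitted with 1 mean per group (TMM, filterByExpr, 7086 genes, 8 residual degrees of freedom) by edgeR's quasi-likelihood test (edgeR 4.0.16, R 4.3.3), with Benjamini-Hochberg adjustment over all tested genes and a threshold of 0.05. The common biological coefficient of variation was 11.1%. SE is the log2 fold change divided by the root of F. The study's general statement on statistics describes biological replication, but the labels do not say whether these libraries came from separate cultures, so p-values measure only the spread between them. Floors cover counting error only. On simulated counts of 6562 genes, 56.5% (LNCaP) and 56.9% (22Rv1) of genes changed by 1 on the log2 scale were recovered. Of the genes called there, 6.31% and 6.14% had not been changed. No tested OXPHOS gene changed by as much as 1 in LNCaP or 22Rv1, and the recovery of smaller changes was not simulated.

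Genes were named if called in a treatment comparison or the difference between lines, if among the 3 largest rises or falls per line with a mean of at least 20 counts, if among the 5 largest called differences in each direction between the untreated lines, if on a panel of core and special subunits, or, in the other lists, if called, up to 3 per list. Further names complete a complex or a count and were chosen after their values were seen. Alternatives were DESeq2 1.42.0 and limma 3.58.1, other scalings, filters and thresholds, thinning, a replicate block, fits of single lines, with PC3, or without mitochondrial genes, and leaving out each library. Positions are from GENCODE 44 and promoters from RefSeq GRCh38.p14. Values of some genes are not reported here.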

Additional observations from a re-analysis of the deposited data

Results flagged for a closer look

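CMC2, an assembly factor of cytochrome c oxidase (complex IV), was singled out since the test of the difference between the lines passed for it. No other OXPHOS gene or gene of the pathway lists passed. Of all tested genes, 0.268% passed with a more positive and 0.466% with a more negative effect in LNCaP. It was at 88.7, 78.5 and 71.3 CPM in LNCaP DMSO libraries and at 50.7, 59.6 and 67.6 CPM in LNCaP SEL120-34A libraries, with every treated library below every control. In 22Rv1 it was at 43.2, 46.8 and 48.9 CPM in DMSO and at 77.2, 107 and 97.0 CPM in SEL120-34A libraries, with every treated library above every control. The effect in LNCaP minus that in 22Rv1 was -1.36 ± 0.32 on the log2 scale (edgeR adjusted p = 0.0328), and the call was lost in 12 of 21 alternatives, over which the adjusted p ranged from 0.0206 to 0.198.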

How the results depend on the processing

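In LNCaP the count of OXPHOS genes called stayed at 0 except with at least 10 counts in every library, where it was 1, and without single libraries, where it was 0 to 1. In 22Rv1 the count of 6 became 3 with library totals alone (1 higher and 2 lower), 3 after thinning and 3 with limma-trend. Without a filter the count was 2, with COX5A higher and ATP5F1B lower. It was 1 at an adjusted p under 0.01 and 1 to 9 without single libraries. The count for the difference between lines was 1 with the DESeq2 Wald test. Between the untreated lines the count of 31 became 19 after thinning, 20 at an adjusted p under 0.01 and 15 with a log2 difference of at least 0.5. Library totals alone moved the median log2 fold change of all OXPHOS genes to -0.10 in LNCaP, 0.032 in 22Rv1 and -0.15 between the untreated lines, beside all-gene medians of -0.08, -0.14 and -0.24, and at least 10 counts in every library moved the median difference to -0.094. ATP5PD in LNCaP turned to 0.16 (edgeR adjusted p = 0.864) after thinning, and ATP5MC3 in 22Rv1 to -0.014 (edgeR adjusted p = 0.965) with library totals. For all of these the cause was not tested. The PC3 count of 3 was 2 with library totals and 2 with a mean of at least 50 counts.

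With the replicate number as a replicate block, 0, 7, 0 and 32 OXPHOS genes were called in LNCaP, 22Rv1, the difference and the untreated lines. The 7 in 22Rv1 were the original 6 and ATP5F1B, which was lower. Deviations of treated and control libraries with the same number correlated at 0.09, -0.05 and 0.12 in LNCaP and at 0.02, -0.01 and 0.04 in 22Rv1, so the numbers were not taken to pair the samples.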
